A study of Drosophila melanogaster with 25 samples.

Results

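VGlut, ChAT, VAChT, Gad1 and VGAT were examined as the genes that give a neuron its fast transmitter. They were chosen by name, for their roles, with earlier results of these data known. They are 5 of the 17087 gene rows of a count table from single neurons of the Drosophila melanogaster brain. The rows were read in 1026 clock cells and 2196 dopaminergic neurons (DANs), which were picked out of 5184 cells sequenced by 10X Chromium, and in 1516 cells sequenced by CEL-seq2, a plate method. A 10X cell was taken as a clock cell where tim, vri, Clk and cry, genes of the circadian clock, summed to 3 or more unique molecules (UMIs) and Vmat, the vesicular monoamine transporter, had 1 or less. It was taken as a DAN where Vmat had 5 or more UMIs and DAT, the dopamine transporter, 1 or more. The 1962 10X cells that met neither rule were kept apart.

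All flies had been entrained to a light and dark cycle before dissection, and times are given as Zeitgeber time (ZT, hours after lights on). The CEL-seq2 cells came from a line in which TH-GAL4 drove EGFP, with 3 or 4 libraries at each of 6 time points (ZT02, ZT06, ZT10, ZT14, ZT18 and ZT22) and 23 in all. The 10X cells came from a stable line that carried TH-GAL4 together with Clk856-GAL4, with 1 library at ZT02 and 1 at ZT14. TH-GAL4 labels only a part of the PAM cluster of DANs and Clk856-GAL4 only some DN3 clock neurons, so the cells are not a census of either class. Nothing in the labels tied a CEL-seq2 library to a separate group of flies, so p-values over libraries measure the spread between these libraries. The median total per cell was 8300 and 10154 UMIs in clock cells at ZT02 and ZT14, 6486 and 8465 in DANs, and 9760 in the CEL-seq2 cells, of which 1155 met the DAN rule.

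A neuron releases a fast transmitter by making it and loading it into synaptic vesicles. VGlut is the transporter that loads glutamate. ChAT makes acetylcholine and VAChT loads it, and the VAChT coding sequence lies inside the ChAT gene, an arrangement shared by many animals. Gad1 makes GABA from glutamate and VGAT loads GABA. In the fly central brain acetylcholine is the main excitatory transmitter, GABA is inhibitory, and glutamate is often inhibitory. Clock neurons and DANs are better known for their neuropeptides and for dopamine, and a fast transmitter can be carried beside these.

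In the annotation of the dm6 assembly, VGlut spans 2400295 to 2410662 on the plus strand of chromosome arm 2L, and Gad1 spans 4074077 to 4088744 on the minus strand of 3L. ChAT spans 18705501 to 18732344 and VAChT 18705501 to 18718916, both on the plus strand of 3R, and VGAT is on 2R. Both libraries count the 3′ ends of transcripts, and only reads on exons were counted, by the methods of the study. ChAT and VAChT share their first exon, and Gad1 overlaps CG14989, on the opposite strand, by 1164 bp. Both shared stretches lie at the 5′ ends of the genes, away from the 3′ ends that were counted. Whether they affect any UMIs was not tested. Levels are UMIs per 10000 UMIs of the summed cells (TP10K) and were compared between cells for one gene, not between genes. A sum of cells cannot tell fewer positive cells from less RNA per cell, so the share of cells with a UMI is given beside each level.

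VGlut was high in clock cells, with 11.9 TP10K in the ZT02 library and 11.8 in the ZT14 library. It was detected in 52.1% and 48.2% of the cells. In DANs the levels were 3.34 and 2.66 TP10K, with 15.3% and 14.1% of cells. The UMIs were concentrated in a minority of each class. The 348 clock cells with 10 or more UMIs were 33.9% of the cells and held 93.2% of the VGlut UMIs, and the 153 such DANs were 6.97% of the cells and held 88.0%.

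The pair of acetylcholine genes separated the classes more widely. ChAT was at 1.79 and 1.55 TP10K in clock cells at ZT02 and ZT14 and at 0.108 and 0.111 in DANs. VAChT, its partner, was at 2.71 and 2.50 TP10K in clock cells and at 0.177 and 0.178 in DANs. The libraries of a class lay close together for both genes, and the classes did not overlap. ChAT was detected in 39.0% of all clock cells and 5.01% of DANs, and VAChT in 42.3% and 5.83%. As a measure of background, 80 10X cells with 100 or more UMIs of Pdf, a neuropeptide of lateral clock neurons, had ChAT in 2.5%, VAChT in 5.0% and VGlut in 5.0%. Their median total was 11944 UMIs, against 7091 in DANs, and their levels were 0.0319 TP10K for ChAT and 0.0743 for VAChT. DANs were thus above these cells in both levels, and near them in the share with VAChT. Their share with ChAT was higher as well. The shares among the 80 cells rest on very few positive cells, so a difference of this size can be counting error.

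The GABA genes did not mark either class. Gad1 was found in 1 of 509 clock cells at ZT02 and in 3 of 517 at ZT14, and 96.8% of its 62 UMIs lay in 2 of these cells. In DANs it was found in 0.613% and 0.449% of cells. VGAT was detected in 35.4% and 37.3% of clock cells and in 34.4% and 42.9% of DANs, always at low counts. Its highest count in any cell was 7 UMIs in clock cells and 5 in DANs, and it was also detected in 22.5% of the Pdf-rich cells. Its levels, 0.535 and 0.546 TP10K in clock cells and 0.666 and 0.665 in DANs, sat within a narrow range.

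**Figure D1:**
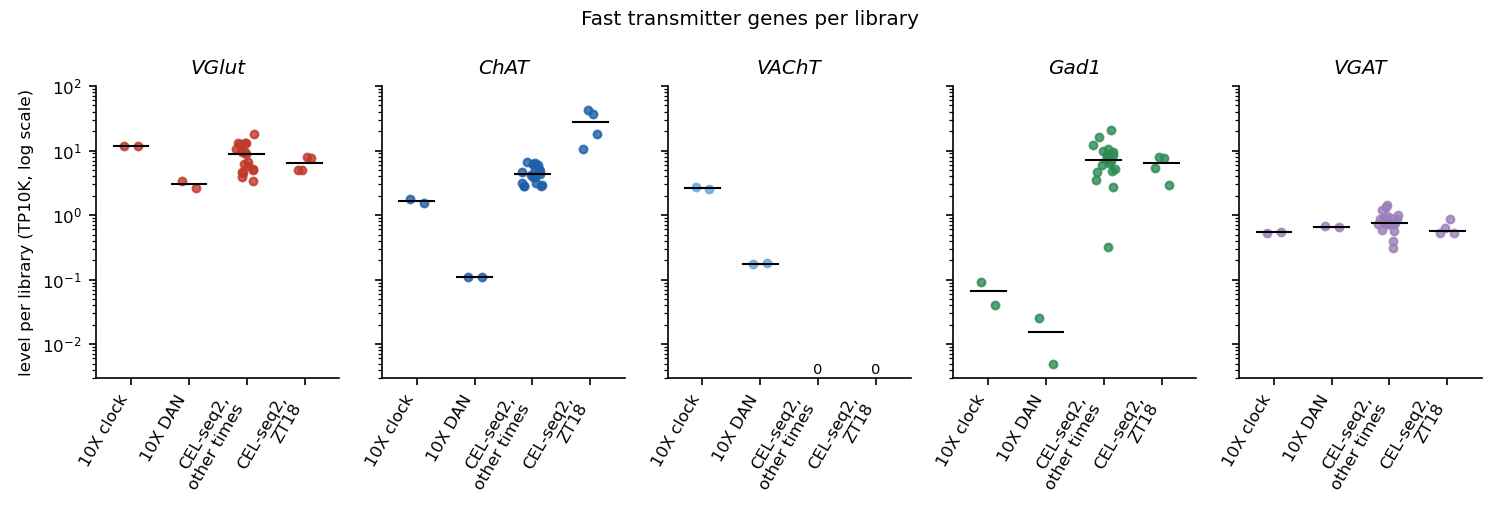
Level of each gene (TP10K, log axis) per library, with 1 point per library and a line at the median, in 10X clock cells, 10X DANs, and CEL-seq2 cells of ZT18 and of other times. ChAT and VAChT in 10X clock cells (1.55 to 2.71 TP10K) sit far above 10X DANs (0.108 to 0.178), VGAT lies at a similar height in both, and the 0 marks VAChT in CEL-seq2.

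The classes were compared over 4 sums of cells, 1 for each class and library, and the fit included a term for the library (edgeR quasi-likelihood test, Benjamini-Hochberg adjusted over 7747 genes). Calls needed an adjusted p below 0.05 together with a log2 change of at least 0.32. In clock cells VGlut was higher by 2.09 ± 0.12 (log2, SE; 4.25-fold, adjusted p = 0.0199), ChAT by 4.02 ± 0.14 (16.2-fold, adjusted p = 0.0125) and VAChT by 3.97 ± 0.12 (15.6-fold, adjusted p = 0.0107). Thus 3 of the 5 genes were called higher, where 11% of all genes tested were called higher and 7.13% lower. The genes were chosen with earlier results of these data known, and ChAT and VAChT share a locus, so the count is a description only. Gad1 (2.36 ± 0.48, adjusted p = 0.0555) and VGAT (-0.21 ± 0.09, adjusted p = 0.202) did not pass. The median change of the 5 genes was 2.36, beside 0.01 over all genes tested. That median is the value of Gad1, which rests on few UMIs. There were 40 and 22 in all clock cells at ZT02 and ZT14, and 24 and 4 in all DANs.

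These calls depended on how the cells were taken. Where 1198 clock cells and 2779 DANs were instead matched to the clusters of the study by their expression, VGlut stayed higher in clock cells (1.76, adjusted p = 0.00401), whereas ChAT (1.07, adjusted p = 0.0640) and VAChT (0.76, adjusted p = 0.0998) no longer passed and Gad1 was lower (-4.52, adjusted p = 0.0223), and the median of the 5 was that of VAChT, 0.76. All are edgeR values. The matched DANs included 844 cells that did not meet the DAN rule, with ChAT at 2.91, VAChT at 5.84 and Gad1 at 2.67 TP10K. In the 1935 matched DANs that met it, the levels were 0.102, 0.162 and 0.00307. The part of those 844 cells in the changes was not tested. Other markers moved with the classes as well. ple, the tyrosine hydroxylase that defines dopaminergic cells, was at 59.1 to 61.6 TP10K in DANs and at 0.503 to 0.711 in clock cells. The summed neuronal markers were at 79.5 to 81.3 TP10K in DANs and 45.3 to 46.7 in clock cells, and the summed glial markers at 0.265 to 0.368 and 1.17 to 3.13, with repo, the defining glial factor, at 0 to 0.00185. The 143 cells matched to the cluster 2:Clk had nSyb, a synaptic vesicle protein of neurons, at 0.284 TP10K and Eaat1, a glial glutamate transporter, at 10.6. With the cells of 2:Clk left out, an alternative chosen after seeing the data, the VGlut, ChAT and VAChT changes were 2.15, 4.08 and 4.03. Gad1 then passed (2.41, edgeR adjusted p = 0.0432). The cells of 2:Clk held 0 Gad1 UMIs, so that call rests on the same few clock cells with Gad1.

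Other genes of each transmitter were read from lists. ChT, the transporter that takes choline back up for acetylcholine synthesis, was higher in clock cells (4.48 ± 0.11, adjusted p = 0.0106), as was Ace, the acetylcholinesterase (0.74 ± 0.09, adjusted p = 0.0303). These were both of the acetylcholine list that could be tested. Of 9 further glutamate genes 3 were higher, Eaat1 (5.69 ± 0.73, adjusted p = 0.0307) and the aspartate aminotransferases Got1 (1.45 ± 0.10, adjusted p = 0.0203) and Got2 (0.91 ± 0.16, adjusted p = 0.0454). Eaat1 is also among the glial markers. It was at 10.6 TP10K in the cells of 2:Clk, and 78 of the 1026 clock cells matched that cluster. The change of Eaat1 without those cells is not given here. The edgeR test called 0 of the 2 further GABA genes tested. Of 6 monoamine genes, 4 were lower, with ple at -6.56, and Tbh, which makes octopamine, was higher (2.54 ± 0.36, edgeR adjusted p = 0.0339). Tdc2, the other octopaminergic marker read, was among the 4 that were lower (-1.35 ± 0.11, edgeR adjusted p = 0.0224). Of the transcription factors tied to a transmitter in the fly optic lobe, ap was higher (2.33 ± 0.12, edgeR adjusted p = 0.0167) and Lim3 lower (-5.22 ± 0.25, adjusted p = 0.0165).

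VGlut and the acetylcholine genes were largely found in different clock cells. Of the 1026 cells, 354 (34.5%) had VGlut alone, 328 (32.0%) had ChAT or VAChT without VGlut, 160 (15.6%) had both and 184 (17.9%) had neither. Of the last, 71 matched cluster 2:Clk and 62 the cluster 1:LNv(2,25) of Pdf neurons. VGlut and ChAT were detected together in 121 cells (11.8%, 95% Clopper-Pearson interval 9.88 to 13.9), below the 19.5% given by the product of the separate shares. Intervals here and elsewhere cover counting error only. ChAT was found in 23.5% of cells with VGlut and in 54.5% of cells without it, at median totals of 9023 and 8982 UMIs, so the contrast was not accompanied by a difference in depth. After each cell was thinned to 1000 UMIs the shares were 4.19% and 16%.

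At 10 or more UMIs VGlut and the acetylcholine genes were not found in the same clock cells. Of the 348 clock cells with 10 or more VGlut UMIs, 0 had 10 or more ChAT or VAChT UMIs, and a count of 0 in 1026 cells allows a share of up to 0.359%. This threshold was chosen after seeing the data. Few cells reached it for the acetylcholine genes, with 17 for ChAT and 29 for VAChT among the 509 clock cells at ZT02. ChAT or VAChT was still detected at some level in 32.8% of these 348 cells, against 27.7% of cells with 1 to 9 VGlut UMIs and 64.1% of cells with 0. Moderate counts of both did occur. In 41 clock cells (4.0%) VGlut and the sum of ChAT and VAChT each reached 5 UMIs, and 16 of these matched 5:DN1p(6), 7 matched 34:DN3(14) and 7 matched 7:DN3(14).

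ChAT and VAChT were found in the same cells. They were detected together in 346 clock cells (33.7%, with a product of shares of 16.5%), and VAChT was present in 86.5% of cells with ChAT and in 14.1% of cells without. At 10 or more UMIs, 34 of the 35 cells with ChAT also had VAChT. The ratio of VAChT to ChAT UMIs was 1.56 in clock cells (interval 1.47 to 1.67) and 1.62 in DANs (1.35 to 1.95). Across clusters it ran from 1.01 (0.753 to 1.36) in 5:DN1p(6) to 3.56 (2.59 to 4.98) in cluster 36, so it was not fixed. VGlut and VGAT were found together in 20.2% of clock cells, close to the product of 18.2%, and all 4 clock cells with Gad1 also had VGAT.

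The transmitter genes differed from cluster to cluster. The 43 clusters, 19 of clock neurons and 24 of DANs, come from the study, and each 10X cell was matched to them by its expression with the 5 genes and the genes of the rules held out. VGlut reached 5 TP10K in 9 clock clusters, and ChAT reached 1 TP10K in 11. VGlut was highest in 0:DN1p_CNMa(1) (36.1 TP10K), and 100% of the cells there had a UMI. It stood at 34.6 in 5:DN1p(6), 32.5 in 32:DN1p_CNMa(15), 22 in 3:DN1a(3) and 17.1 in 38:DN1p(18), then at 9.91 to 16.7 in 29:DN2(19), 11:DN1p(7), 34:DN3(14) and 7:DN3(14). These are dorsal groups of clock neurons throughout.

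The acetylcholine genes had a different order over the clusters. 14:DN3(20) had 11.5 TP10K of ChAT in 88.9% of its cells and 18.8 of VAChT in 93.7%. ChAT was at 4.70 TP10K in 16:DN1p(4), and at 3.43 in 34:DN3(14), which also had VGlut and where VAChT reached 7.45. It was at 3.14 in 12:LPN(29), 2.47 in 6:LNd_NPF(9), 2.14 in 15:LNd(12), 2.08 in 18:LN_ITP(8), 2.05 in 25:DN1p(4) and 1.96 in 10:LNd_Trissin(5). Dorsal and lateral groups were thus both present, with 5:DN1p(6) at 1.35 and 29:DN2(19) at 1.29. In 1:LNv(2,25), the Pdf neurons, ChAT (0.0332), VAChT (0.0221) and VGlut (0.0111) were all near 0 TP10K. Gad1 reached 1 TP10K in 0 of the clock clusters.

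**Figure D2:**
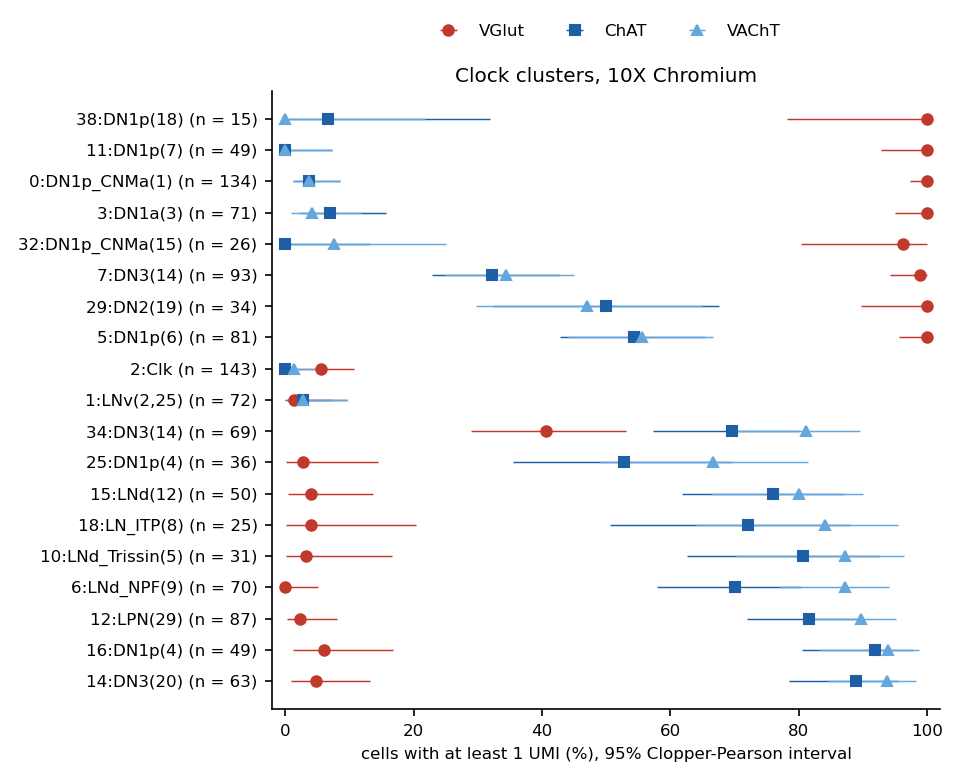
Share of cells with at least 1 UMI of VGlut, ChAT or VAChT (percent) in each matched clock cluster, with n the number of cells and bars the 95% Clopper-Pearson interval. VGlut was found in 96.2 to 100% of cells in 8 clusters, and ChAT ranged from 0 in 11:DN1p(7) to 54.3% in 5:DN1p(6) among those.

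In 3 clock clusters VGlut and ChAT passed those levels together, 5:DN1p(6), 29:DN2(19) and 34:DN3(14). In 5:DN1p(6), 52 of the 78 cells with 5 or more VGlut UMIs (66.7%) also had a ChAT or VAChT UMI, and in 29:DN2(19) it was 20 of 30 (66.7%). The share varied among the clusters with VGlut-rich cells. It was 35 of 65 (53.8%) in 7:DN3(14), where ChAT was at 0.658 TP10K, and 7 of 119 (5.88%) in 0:DN1p_CNMa(1), 5 of 62 (8.07%) in 3:DN1a(3) and 0 of 39 in 11:DN1p(7), beside 3 of 72 cells (4.17%) of 1:LNv(2,25). In 34:DN3(14) the acetylcholine genes did not follow VGlut, with 21 of 23 cells (91.3%) with 5 or more VGlut UMIs and 38 of 41 (92.7%) without VGlut. The clock genes were low there, since 12 of its 69 cells met the clock rule and tim was at 1.22 TP10K.

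Across all 43 clusters the gene most like VGlut was CG46448 (Pearson r = 0.97 over log2 levels, 2854 genes), whose annotated span ends 8190 bp before VGlut on the same strand. GC1, a mitochondrial glutamate carrier, followed (0.86). The genes most like ChAT were VAChT (0.98) and ChT (0.98). Gad1 was most like CG14989 (0.94), the gene that overlaps it, then Ssadh (0.55) and VGAT (0.53). VGAT was most like Ih, a hyperpolarization-activated channel (0.79), and Gad1 was not among its closest 3. The clusters share libraries, and these values are descriptions. VGlut and ChAT had r = -0.47 over the 19 clock clusters and 0.40 over the 24 DAN clusters. The DAN clusters were summed over all matched cells, including 844 that did not meet the DAN rule. ChAT was at 2.91 TP10K in those 844 cells and at 0.102 in the 1935 that met it, so the value of 0.40 does not describe the gated DANs alone.

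In most 10X DANs no UMI of VGlut, ChAT or VAChT was detected. Of 2196 cells, at a median of 7091 UMIs, 1751 (79.7%) had none, 268 (12.2%) had VGlut alone, 119 (5.42%) had ChAT or VAChT alone and 58 (2.64%) had both. In 5 cells both reached 5 UMIs. In the CEL-seq2 cells that met the same rule outside ZT18, VGlut was detected in 73.4% and ChAT in 68.2%. VGlut was concentrated in a few clusters. Among cells that met the DAN rule it was at 40.1 TP10K in cluster 39, in 100% of 63 cells, where ChAT and VAChT were at 0. It was at 33.8 in the 16 cells of cluster 30, of which 56.3% had VAChT, at 13.6 in cluster 26 (94.2% of 52 cells) and at 7.13 in cluster 19 (87.0% of 115 cells).

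The cells matched to DAN clusters were mixed in their dopaminergic markers, and the transmitter genes differed with them. Of the 2779 matched cells, 1935 met the DAN rule, with ple at 62.0 TP10K, and 844 did not, with ple at 7.03 and Vmat at 7.77. ChAT was at 0.102 TP10K inside the rule and 2.91 outside it (5.01% and 56.0% of cells), and VAChT at 0.162 and 5.84. Gad1 was at 0.00307 and 2.67, VGlut at 2.82 and 5.14 and VGAT at 0.667 and 0.804. The acetylcholine genes and Gad1 of the DAN clusters were thus mostly carried by cells poor in Vmat and ple, and this split was chosen after seeing the data. In cluster 26 the cells inside the rule had VGlut and the 89 outside it had Gad1 at 20.9 TP10K, in 51.7% of cells. Of the 46 cells of that cluster with Gad1, 0 had VGlut, 1 had ChAT and 35 (76.1%) had VGAT.

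**Figure D3:**
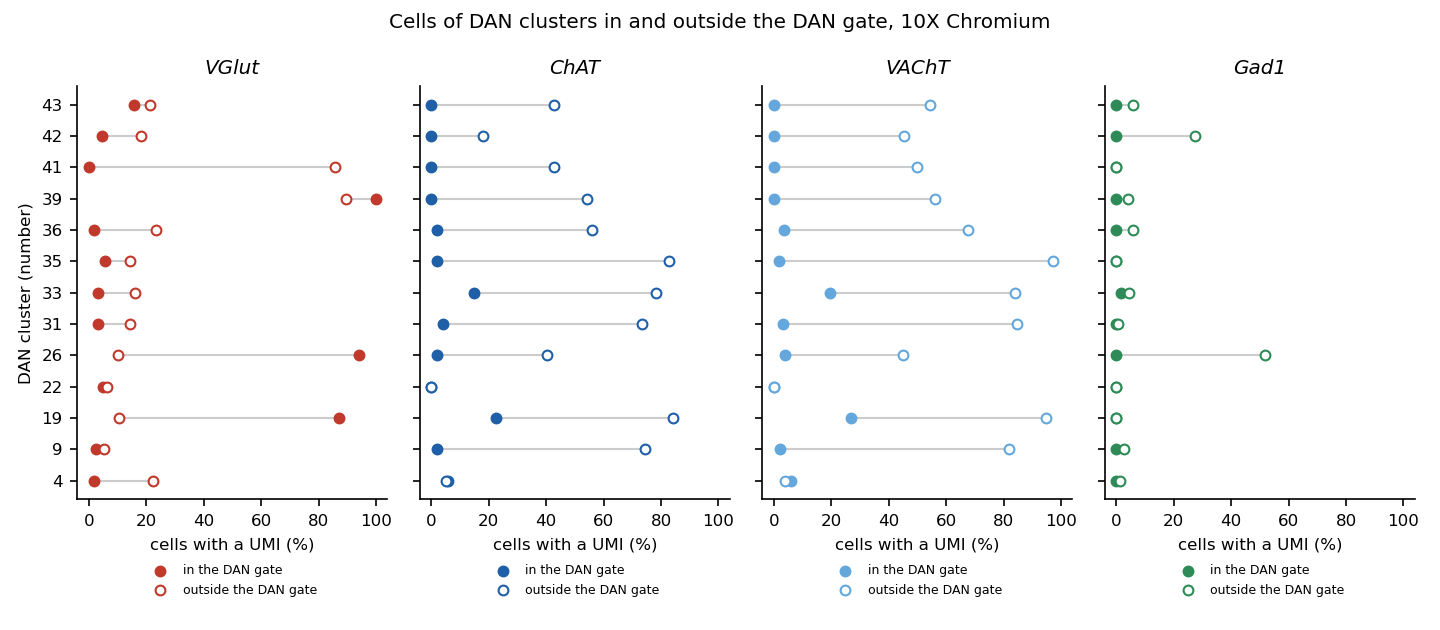
Share of cells with a UMI (percent) of VGlut, ChAT, VAChT and Gad1 in DAN clusters, for cells that met the DAN rule (filled) and cells that did not (open). Only clusters with 10 or more cells of each kind are shown, so clusters made up almost wholly of cells that met the rule are left out. VAChT in cluster 35 was at 1.89% inside the rule and 97.1% outside it, and VGlut in cluster 26 at 94.2% and 10.1%.

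Between ZT02 and ZT14 the 10X cells allowed no test, with 1 library each. The ratio of ZT14 to ZT02 in clock cells was 0.998 (0.962 to 1.04) for VGlut, 0.865 (0.784 to 0.955) for ChAT, 0.923 (0.853 to 0.998) for VAChT and 1.02 (0.859 to 1.22) for VGAT. In DANs it was 0.796 (0.753 to 0.841) for VGlut, 1.03 for ChAT, 1.01 for VAChT and 0.998 for VGAT. Among these gated values that of VGlut in DANs was farthest from 1. In cells matched to DAN clusters VGlut was at 0.872, ChAT at 1.52 and VAChT at 1.53. Gad1 had ratios of 0.446 in clock cells and 0.192 in DANs, from few cells, and 1.63 in matched DANs.

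In the CEL-seq2 libraries VGlut differed with time of collection. The libraries had 9.43, 13.2, 18 and 9.35 TP10K at ZT02, then 6.68, 10.6, 5.15 and 5.82 at ZT06. At ZT10 the 3 libraries had 4.45, 3.33 and 4.68 TP10K, and at ZT14 there were 13.3, 12.9, 6.21 and 12.8. ZT22 had 10.2, 5.03, 3.88 and 8.68, and ZT18 had 5.01, 4.96, 7.90 and 7.74. The ZT10 libraries lay below every library of ZT02, ZT06, ZT14 and ZT18 and overlapped those of ZT22, and the other times overlapped one another in part. Over the 5 time points other than ZT18 (5722 genes tested, 8.56% called) the edgeR test across times called VGlut, with a 2.84-fold range (adjusted p = 0.0210), and ChAT (0.623), Gad1 (0.582) and VGAT (0.495) had larger adjusted p. On the log2 scale that range was 1.5. With only the DAN-gated cells it was 1.64 and did not pass (adjusted p = 0.0599), and without library 18 of ZT10 it was 1.39 (adjusted p = 0.0668). Times also differed in a tag of the library names, shared by ZT02 and ZT14, by ZT06 and ZT22 and by ZT10 and ZT18, so the tag and the level of VGlut cannot be told apart across tags. Within a tag edgeR called no difference of VGlut, which changed by -0.20 (adjusted p = 0.934) from ZT02 to ZT14, by -0.04 (adjusted p = 0.991) from ZT06 to ZT22 and by 0.61 ± 0.32 (1.52-fold, adjusted p = 0.242) from ZT10 to ZT18, where the libraries of both times did not overlap.

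None of the genes was called by edgeR from ZT02 to ZT14 or from ZT06 to ZT22 (6039 genes tested, 1.5-fold). The third within-tag comparison, from ZT10 to ZT18, in which ChAT was called, is given with ZT18 below. From ZT02 to ZT14 ChAT changed by 0.32, Gad1 by -0.53 and VGAT by -0.10, where 0.0% of all genes were called higher and 0.0166% lower. From ZT06 to ZT22 the changes were 0.25, 0.94 and 0.41, where 0.182% were called higher and 0.0166% lower. At an unadjusted p under 0.05 there were 376 and 480 genes, and DESeq2 called 2 higher and 9 lower in the first and 56 and 6 in the second.

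**Figure D4:**
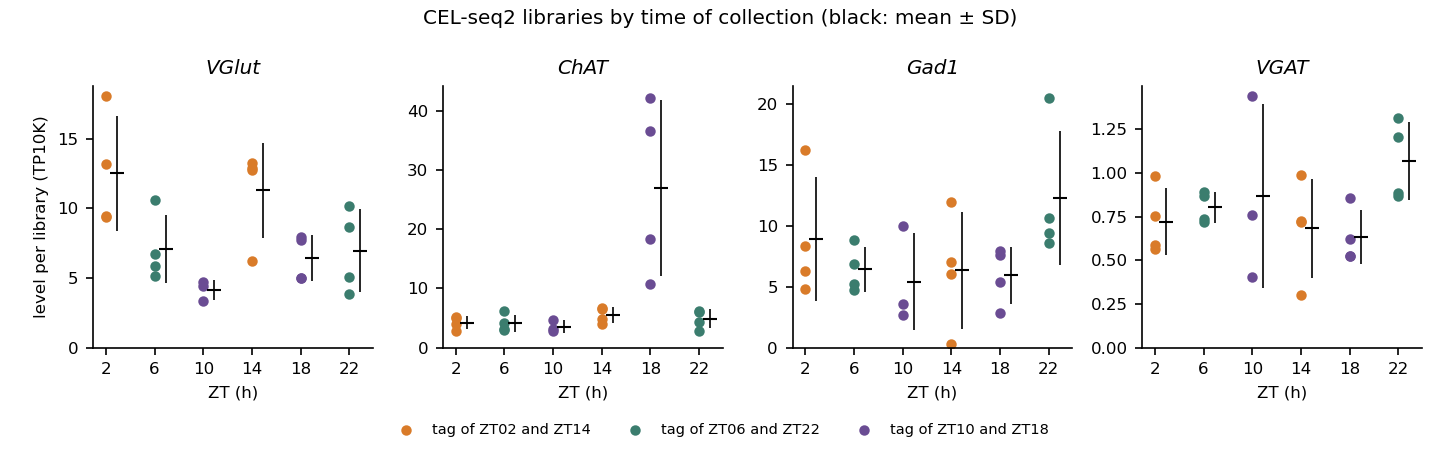
Level of VGlut, ChAT, Gad1 and VGAT (TP10K) in each CEL-seq2 library by Zeitgeber time (h), coloured by the tag in the library name, with black bars for the mean ± SD of each time. ChAT stands apart at ZT18 (10.7 to 42.2 TP10K), and the mean of VGlut was lowest at ZT10 (3.33 to 4.68).

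At ZT18 the ChAT count stood apart from all other times and is given separately. The ZT18 libraries had 10.7, 42.2, 36.5 and 18.3 TP10K, and the 19 other libraries had 2.80 to 6.62 with a median of 4.38. ChAT was detected in 98.7 to 100% of ZT18 cells and in 54.8 to 84.6% elsewhere, and 254 of the 300 ZT18 cells had 10 or more UMIs. The groups did not overlap. Against ZT10, the other time with the same tag, ChAT was higher by 2.91 ± 0.39 (edgeR, 7.50-fold, adjusted p = 7.89e-05), and against ZT22 by 2.50 ± 0.34 (5.64-fold, adjusted p = 4.47e-05). The background was 5.13% of genes called higher and 3.16% lower against ZT10, and 7.1% and 3.06% against ZT22. VGlut, Gad1 and VGAT were called in neither.

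Many genes around ChAT were called higher at ZT18 as well. Of 31 other genes tested that start within 250 kb of the ChAT start, 22 were called higher against ZT10 and 24 against ZT22, and 0 were called lower against ZT10. Those called against ZT10 ran from -76.35 to 93.78 kb from the start of ChAT. The 5 tested genes on either side of the ChAT start, from CG7706 to gwl, were called higher in both comparisons. They include CG7708, the older symbol of ChT, and CG34283 and CG7714, which lie within the span of ChAT. Summed, these 10 genes had 9.73, 70.3, 90.2 and 42.1 TP10K in the ZT18 libraries and 2.53 to 6.07 (median 3.70) in the others. The lowest ZT18 value is that of library 13, in which CG7714 was at 0.00952 TP10K, beside a median of 0.00997 at other times. For 5 of the 10 genes the ZT18 libraries did not overlap the others. For CR45996 the margin was small, with 0.0191 TP10K beside 0.0182. The share of all genes without such overlap is not given here. The 4 tested genes that start 201 kb or more away were not called. The ZT18 values of ChAT therefore moved together with a stretch of neighbouring genes, and the part of this stretch in the ChAT level was not tested.

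**Figure D5:**
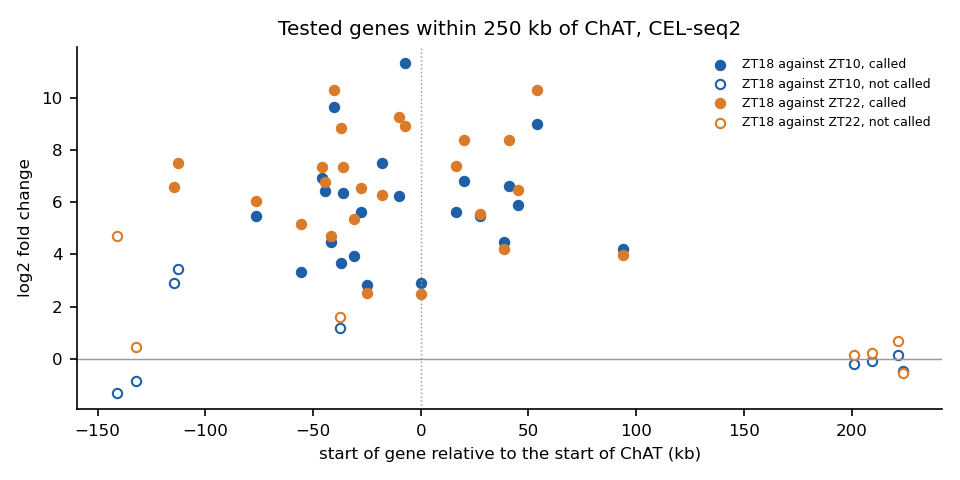
Change at ZT18 (log2) of each tested gene by the distance of its start from the start of ChAT (kb), against ZT10 and ZT22, filled where called. All tested genes from -76.35 to 93.78 kb but CG31229 were called in both comparisons, and those 201 kb or more away were not.

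VAChT could not be followed in CEL-seq2. Its row listed 0 UMIs in all 1516 cells, ZT18 included, although ChAT was present in most. The same table gave the choline transporter as ChT in 10X and as CG7708 in CEL-seq2, so its genes were named differently for the methods. The listing at 0 is not a measure of absence.

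Outside ZT18, Gad1 varied widely among CEL-seq2 libraries, from 0.321 to 20.5 TP10K and from 8.77 to 92.6% of cells. VGAT was at 0.304 to 1.44 TP10K. For Gad1 and VGlut few cells carried most of the UMIs. The 1 to 11 cells per library with 10 or more Gad1 UMIs held 71.7 to 94.8% of them, and the 8 to 23 such cells for VGlut held 73.6 to 93.3%. For VGAT such cells held 0 to 50% (median 18.4%). The other cells nevertheless often had a UMI, in 7.14 to 91.4% for Gad1 and in 40.0 to 86.0% for VGlut. The library at ZT14 with the index 8 had 1 Gad1-rich cell and a Gad1 UMI in 7.14% of the others, whereas the library at ZT22 with the index 14 had 11 and 90.7%.

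Co-detection at 1 UMI in CEL-seq2 lay close to the product of the shares. In the 1216 cells outside ZT18 VGlut and ChAT were both detected in 50.5%, beside a product of shares of 49.2%, and VGlut and Gad1 in 44.3%, beside 43%. At 10 or more UMIs VGlut met ChAT and Gad1 less often than the product, and Gad1 met VGAT more often. VGlut and ChAT were then together in 24 cells (1.97%, product 3.34%), VGlut and Gad1 in 3 (0.247%, product 1.60%) and Gad1 and VGAT in 13 (1.07%, product 0.0974%).

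The methods gave different levels of the genes in cells that met the DAN rule. In the CEL-seq2 libraries of ZT02 and ZT14 VGlut was at 5.57 to 19.1 TP10K, against 2.66 and 3.34 in 10X. ChAT was at 1.39 to 4.85 against 0.108 and 0.111, and Gad1 at 0.0272 to 16.5 against 0.00495 and 0.0258. VGAT overlapped, at 0.353 to 1.03 against 0.665 and 0.666. On log2(TP10K + 0.1), CEL-seq2 was higher by 1.83 for VGlut, 3.94 for ChAT and 4.62 for Gad1, each with an adjusted p of 0.0296 (two-sided exact permutation test of 2 against 8 libraries, adjusted over 4 genes, smallest unadjusted p 0.0222). VGAT differed by -0.07 (adjusted p = 0.756, exact permutation). Without library 1, 2 or 3 of CEL-seq2 ZT02 none of the 3 passed (adjusted p = 0.0556 to 0.0741, exact permutation), with differences of 1.72 to 1.93 for VGlut, 3.85 to 4.02 for ChAT and 4.43 to 4.53 for Gad1. In these omissions VGlut and ChAT kept an unadjusted p of 0.0278, the smallest that 36 splits allow, and Gad1 had 0.0556 (exact permutation). With 1 10X library the test cannot pass, since its smallest p is 0.111. With a stricter gate VGlut was not called (1.28, adjusted p = 0.148, exact permutation). The VAChT row listed 0 UMIs in CEL-seq2, and whether its transcripts were counted under ChAT there was not tested. For that reason the sum of ChAT and VAChT in the 10X DANs is given, 0.286 and 0.290 TP10K, beside 1.39 to 4.85 for ChAT in CEL-seq2. The method, the line, the driver combination and the naming of genes differed together, so their parts cannot be told apart.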

How the data were processed

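The authors deposited 1 table of raw UMI counts, made with zUMIs for CEL-seq2 and Cell Ranger 6.0.2 for 10X, aligned to dm6 with exonic alignments only, after low-quality cells and, in 10X, Scrublet doublets had been removed. Of 9025 cell columns, 6700 matched the labels and 2325 were not used. The 91 spike-in rows (1.426% of CEL-seq2 UMIs) were left out. No barcode was shared by the 10X libraries. Each 10X cell was matched to 1 of 43 clusters by Pearson correlation of log2 values (minimum 0.5, lead over the next 0.01) with the mean expression the study gives for its clusters, over 331 genes, so cluster names are rebuilt; 1207 cells stayed unmatched. Summed counts were tested with edgeR 4.0.16 (R 4.3.3) after removal of low genes, and DESeq2 1.42.0 was an alternative. The code was tested on simulated data. No pair among 33 pairs of libraries of one time agreed within sampling noise (chi-square per degree of freedom 3.84 to 28.4). Named genes were the 5 members and up to 3 called genes of each list in each direction. The 3 genes most like each member (mean of 0.5 TP10K or more) and 5 tested genes on either side of the ChAT start were also named. The members and lists were chosen with earlier results of these data known.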

Additional observations from a re-analysis of the deposited data

Results flagged for a closer look

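In 3 of 40 groups of libraries 1 library lay far from the others of its time, where chance gives about 1 in 20 groups. VGlut at ZT14 was at 6.21 TP10K in library 7, and at 12.8 to 13.3 in the other 3. ChAT at ZT02 was detected in 54.8% of cells in library 1, and in 74.6 to 77.5% in the others. ChAT at ZT18 was detected in 98.7% of cells in library 13, and in 100% in the others. That library lacked a ChAT UMI in 1 cell, and since the other values are tied at the upper limit any lower value would have stood apart.

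Among the 10X cells that met neither rule Gad1 was at 2.33 TP10K, above its level in clock cells and in DANs. It was carried by 124 of the 1962 cells (6.32%), of which 70.2% also had VGAT and 1 had VGlut.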

How the results depend on the processing

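Depth limits the low genes, and 10X has 1 library at each time. With matched cells in place of the gates, ChAT (1.07) and VAChT (0.76) lost their call between clock cells and DANs and Gad1 turned (-4.52); without 2:Clk Gad1 gained it (2.41). The cause was not tested. The ZT14 to ZT02 ratios of matched DANs were 0.872 for VGlut, 1.52 for ChAT, 1.53 for VAChT and 1.63 for Gad1. In clock cells VGlut was 1.05 with matched cells and VAChT 1.02 with stricter gates. For ZT14 against ZT02, 15 genes were higher and 20 lower with no filter and 2 and 9 with DESeq2, and ChAT was -0.21 in DAN-gated cells. For ZT22 against ZT06 the counts were 115 and 17 with no filter, 56 and 6 with DESeq2 and 0 and 0 in DAN-gated cells, where VGlut was 0.049. Against the mean of the other 5 times, ZT18 had 552 genes higher, with Gad1 at -0.28 and VGlut at -0.23. Against ZT22, 119 genes were lower in DAN-gated cells. Over 5 times, 952 genes were called with no filter, and VGlut (1.64) was not called in DAN-gated cells. Between methods VGlut (1.28) was not called with a stricter gate, nor Gad1 (2.23) with a pseudocount of 1, and VGAT was 0.15 with all 23 CEL-seq2 libraries and 0.19 with 19.

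Library index numbers were used as a replicate block, although they did not pair the samples (correlations of deviations -0.0455, 0.0267, -0.0269 and -0.0125). With the block, 258 genes were higher and 106 lower at ZT18 against ZT22, and ChAT was 2.38 (edgeR, adjusted p = 0.00409).

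At 2 UMIs, thinned to 1000 UMIs and at 10 UMIs, VGlut and VAChT met in 7.12%, 2.83% and 0.0% of clock cells and ChAT and VAChT in 23.8%, 5.46% and 3.31%. In CEL-seq2 outside ZT18, VGlut and ChAT met in 24.6%, 7.57% and 1.97% (36.1 to 69.0% over single libraries), and VGlut and Gad1 in 18%, 4.36% and 0.247% (7.02 to 70.7%). Clock clusters with Gad1 at 1 TP10K numbered 1 where only the 5 genes were held out. At a minimum correlation of 0.7, 0 DAN clusters had Gad1 and 1 had VGlut with ChAT. By Spearman correlation 0 of the 3 genes most like Gad1 and 1 of those most like VGAT stayed, and with either library alone 0 for VGAT.

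Leaving out each library in turn, ZT14 against ZT02 gave 0 genes higher and 1 to 2 lower, with ChAT at 0.18 to 0.45, Gad1 at -1.07 to -0.07, VGAT at -0.36 to 0.14 and VGlut at -0.31 to 0.030. ZT22 against ZT06 gave 0 to 26 higher and 0 to 3 lower, and VGlut ran from -0.28 to 0.25. ZT18 against ZT10 gave 172 to 435 higher and 116 to 445 lower, with ChAT at 2.62 to 3.13, Gad1 at -0.23 to 0.95 and VGAT at -0.85 to 0.089. ZT18 against ZT22 gave 306 to 553 higher and 108 to 330 lower, with ChAT at 2.21 to 2.76 and VGlut at -0.27 to 0.17. Over 5 times VGlut ran from 1.30 to 1.62. Clock cells against DANs gave 1.83 to 2.16 for VGlut, 3.80 to 4.05 for ChAT, 3.81 to 3.94 for VAChT, 1.82 to 3.04 for Gad1 and -0.32 to -0.28 for VGAT, with no test. Between methods VGlut ran from 1.67 to 1.99, ChAT from 3.85 to 4.10, Gad1 from 4.26 to 5.26 and VGAT from -0.16 to 0.027. Each of the first 3 lost its call in 5 of 10 omissions, in 2 of which the test could not pass. Beside the omissions, 272 values kept their direction and side of the threshold or stayed within their error, 152 moved, 7 turned, 5 lost a call and 1 gained one.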

Other observations

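The 10X cells that met neither rule carried the acetylcholine genes widely, with ChAT in 47.2% and VAChT in 54.1% of the 1962 cells. ChAT was at 2.64 TP10K in the ZT02 library and 2.87 in the ZT14 library, VAChT, which loads acetylcholine, at 5.08 and 6.06, and Gad1, which makes GABA, at 2.13 and 2.49. VGlut was at 6.84 and 6.75 TP10K and VGAT at 0.779 and 0.766. What these cells are was not tested.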
